A study of Mus musculus with 2 samples.

Results

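The neurofilament family of the mouse cerebral cortex comprises Nefl, Nefm and Nefh, which encode the light, medium and heavy neurofilament subunits, Ina, which encodes alpha-internexin, and Prph, which encodes peripherin. These 5 genes were chosen by name and not by their values, out of 55536 gene rows. They were measured by poly(A)-selected RNA-seq in 2 libraries from the left cerebral cortex of mice of the strain B6NCrl, a C57BL/6 substrain, at an age of 6 months. Both libraries belonged to a single group and are called replicates 1 and 2, as in the labels. Each was started from 20 ng of RNA and made by Nextera tagmentation, in which a transposase cuts the cDNA and attaches adapters. The labels named no allele, treatment or agent, described the mice as male in one field and gave the sex as not collected in another. The replicates had separate biosample records but the same donor entry, so that only the replicate numbers speak for separate animals. Each SD below therefore measures only the spread between these libraries, which may be technical.

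Replicate 1 had 51888490 fragments assigned to genes and replicate 2 had 26776276. The labelled tissue was checked against marker lists. Of 15 pan-neuronal markers, 15 were detected at 1 TPM (transcript abundance, scaled to transcript length and to the library total) or more in both libraries, with a median of 311 TPM in replicate 1 and 275 TPM in replicate 2. Of 15 markers of peripheral, brainstem and motor neurons, 2 were detected, Th and Isl1. Chat, Tph2 and Slc18a3 narrowly missed 1 TPM in replicate 1, at 0.99, 0.98 and 0.97 TPM, and passed it in replicate 2. Of 6 choroid plexus markers 3 were detected, and the list summed to 60.2 and 46.9 TPM. Most of that sum was Ttr, at 54.3 and 39.9 TPM.

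Neurofilaments are the neuronal members of the intermediate filament family, and they fill the axon, where they set its calibre and so the speed of conduction. The light subunit forms the core of the filament, and the medium and heavy subunits join it through a shared helical rod and project long tails that are heavily phosphorylated in the axon. Alpha-internexin co-assembles with them in central neurons, whereas peripherin is best known from peripheral neurons and from central neurons that project to the periphery.

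The transcripts of the members, as annotated in GENCODE M21 (build mm10), are related in sequence. Over the aligned coding bases the identity between members ran from 65.5% for Nefl and Prph to 72.5% for Nefh and Ina. Long exact matches were rare on the same strand. Of the 31-base words of Nefh-201, 0 occurred in the transcripts of another gene, and Nefm-201 and Prph-201 had 5 words in common. Prph-201 shared 6 further words with Des, which encodes the muscle intermediate filament protein desmin.

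The coding sequence of Nefh carries the feature that sets the heavy subunit apart, a run of short repeats encoding the phosphorylated tail. An 18-base unit is shown because it was found 9 times in Nefh-201, between coding bases 1792 and 2277, and 0 times in Nefl, Nefm, Ina, Prph or a transcript of any other gene. Capitals mark 5 exact copies of the unit in coding bases 1954 to 2133 of Nefh-201.
Nefh-201 repeat: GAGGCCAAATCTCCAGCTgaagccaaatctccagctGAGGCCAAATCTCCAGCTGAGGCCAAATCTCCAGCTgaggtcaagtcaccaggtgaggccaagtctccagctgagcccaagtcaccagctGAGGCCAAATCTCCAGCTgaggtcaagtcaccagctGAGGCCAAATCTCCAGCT
Of all 31-base words of Nefh-201, 8.63% occurred more than once in the transcript. In Nefl-201, Nefm-201, Ina-201 and Prph-201 that share was 0%.

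Nefl was the most abundant member and Prph the least, and the order Nefl, Nefm, Ina, Nefh, Prph was the same in both libraries. Levels are given as TPM, which allows comparison between genes. Nefl (ENSMUSG00000022055.7, chromosome 14, 68083863 to 68089095, plus strand, mm10) was at 411 TPM in replicate 1 and 359 TPM in replicate 2, a mean of 385 ± 36.5 TPM (SD, n = 2). It ranked 374 by mean level among 22028 protein coding genes, above 97.0% of the 12448 that were detected. Nefl encodes the subunit on which the other neurofilament subunits assemble.

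Nefm (ENSMUSG00000022054.11, chromosome 14, 68082590 to 68124846, minus strand), the neighbour of Nefl, was at 156 TPM and 117 TPM, a mean of 137 ± 27.8 TPM (SD, n = 2), above 91.6% of detected protein coding genes. Ina (ENSMUSG00000034336.3, chromosome 19, 47014698 to 47025327, plus strand) was at 81.4 TPM and 45.8 TPM, a mean of 63.6 ± 25.2 TPM (SD, n = 2), above 82.5%. Nefh (ENSMUSG00000020396.8, chromosome 11, 4938754 to 4948064, minus strand) was at 19.2 TPM and 7.65 TPM, a mean of 13.4 ± 8.16 TPM (SD, n = 2), near the middle of detected protein coding genes, with 48.5% below it. The heavy subunit was thus the least abundant of the 3 neurofilament subunit transcripts in each library, and replicate 1 was the higher library for Nefl, Nefm, Ina and Nefh.

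Prph (ENSMUSG00000023484.14, chromosome 15, 99055174 to 99058978, plus strand) was at 1.55 TPM and 1.71 TPM, a mean of 1.63 ± 0.113 TPM (SD, n = 2). It rested on 99 fragments in replicate 1 and 57 in replicate 2, against 53092 and 23856 for Nefl, and 3.70% of detected protein coding genes lay below it. Its values were close together in the libraries, and its level was far under that of the other members. Beside it, the 15 markers of peripheral, brainstem and motor neurons summed to 8.13 TPM in replicate 1 and 10.7 TPM in replicate 2. Among them Th, the rate-limiting enzyme of catecholamine synthesis, was at 2.67 and 2.47 TPM, Chat, which makes acetylcholine, at 0.99 and 1.24 TPM, and Phox2a and Mnx1 at 0 in both libraries. The part of such neurons in the level of Prph was not tested. In bulk tissue, fewer cells of a type and less RNA per cell cannot be told apart.

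**Figure D1:**
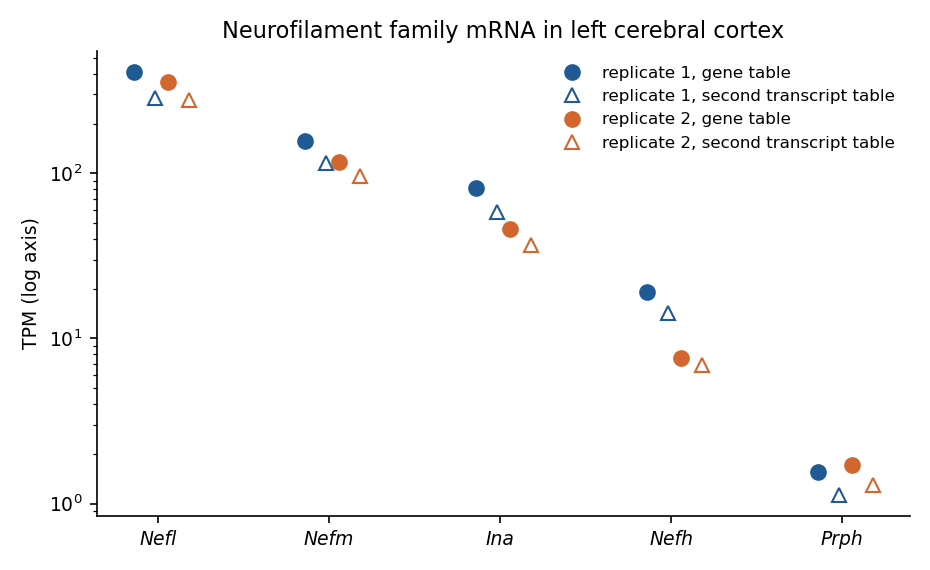
Level of each family member on a log axis of TPM, in replicate 1 (blue) and replicate 2 (orange), with filled circles for the gene table and open triangles for the second quantification. The order from Nefl at a mean of 385 TPM to Prph at 1.63 TPM was the same in both libraries and both quantifications, and in the gene table the values of neighbours did not overlap.

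The 5 genes summed to 669 TPM in replicate 1 and 531 TPM in replicate 2 (600.1 ± 97.6 TPM, SD, n = 2), and took 0.166% and 0.131% of the fragments on genes. Nefl made up 61.4% of the summed TPM in replicate 1 and 67.6% in replicate 2. Nefm made up 23.3% and 22.0%, Ina 12.2% and 8.61%, Nefh 2.87% and 1.44%, and Prph 0.232% and 0.322%. The light subunit thus held more of the family's RNA in replicate 2, and Ina and Nefh held less.

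The ratio between subunits within a library does not depend on library size. There were 2.63 Nefl transcripts per Nefm transcript in replicate 1 (95% counting interval 2.59 to 2.67) and 3.07 in replicate 2 (2.99 to 3.15), a mean of 2.85 ± 0.312 (SD, n = 2). The ratio of Nefl to Ina was 5.04 (4.94 to 5.15) and 7.85 (7.55 to 8.16). The ratio of Nefl to Nefh was 21.4 (20.6 to 22.2) and 46.9 (43.3 to 51.0). The pair of light and medium subunits, which are encoded next to each other, thus had the closest ratios of the 10 pairs, 1.17-fold apart, and the light to heavy ratio was 2.19 times as high in replicate 2 as in replicate 1.

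Nefm stood to Nefh at 8.14 (7.83 to 8.46) in replicate 1 and 15.3 (14.1 to 16.6) in replicate 2, and to Ina at 1.92 and 2.56. Ina stood to Nefh at 4.24 and 5.98. Prph was so low that its ratios were wide: there were 265 Nefl transcripts per Prph transcript in replicate 1 (218 to 327) and 210.0 in replicate 2 (162 to 277). Ina stood to Prph at 52.5 (43.2 to 64.9) and 26.8 (20.6 to 35.4). Nefh stood to Prph at 12.4 (10.2 to 15.3) in replicate 1 and 4.47 (3.41 to 5.98) in replicate 2, the widest gap of the 10 pairs. The counting intervals of the libraries lay apart in 8 of the 10 pairs of members and overlapped for Nefl with Prph and for Nefm with Prph. These intervals cover counting error only. PCR copies were not told apart by molecular identifiers, so that the intervals may be too narrow even for that.

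**Figure D2:**
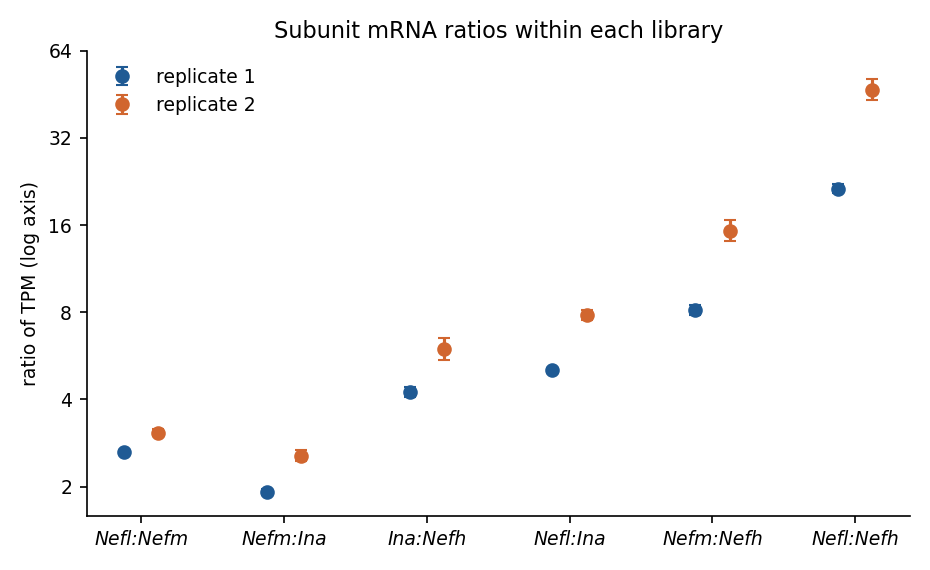
Ratio of TPM for the 6 pairs among Nefl, Nefm, Ina and Nefh in replicate 1 (blue) and replicate 2 (orange) on a log axis, with 95% counting intervals as bars. The Nefl to Nefm ratio was 2.63 and 3.07, the Nefl to Nefh ratio was 21.4 and 46.9, and each of the 6 ratios was higher in replicate 2.

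Nefl and Nefm lie tail to tail on chromosome 14, with 30187 bases between the end of Nefl and the end of the main Nefm transcript, Nefm-201, and 40983 bases between their start sites. A second annotated Nefm transcript, Nefm-202, runs on through that gap. Its exon 4 (68082590 to 68084970, minus strand) lies over exon 1 of Nefl-201 (68083863 to 68085009, plus strand) for 1108 bases, which is 32.8% of Nefl-201 and 30.1% of Nefm-202. The forms part after exon 2, which both hold. At its last junction Nefm-202 enters the Nefl gene from the opposite strand, and this junction is shown because it joins the neighbours. Lower case is the end of its exon 3. The capitals are the start of its exon 4, and the Nefl-201 line is the stretch of the Nefl transcript, from transcript base 1079, that faces it as its reverse complement.
Nefm-202 last junction: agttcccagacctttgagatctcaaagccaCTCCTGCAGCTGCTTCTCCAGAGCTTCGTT
Nefl-201 facing stretch: AACGAAGCTCTGGAGAAGCAGCTGCAGGAG

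**Figure D3:**
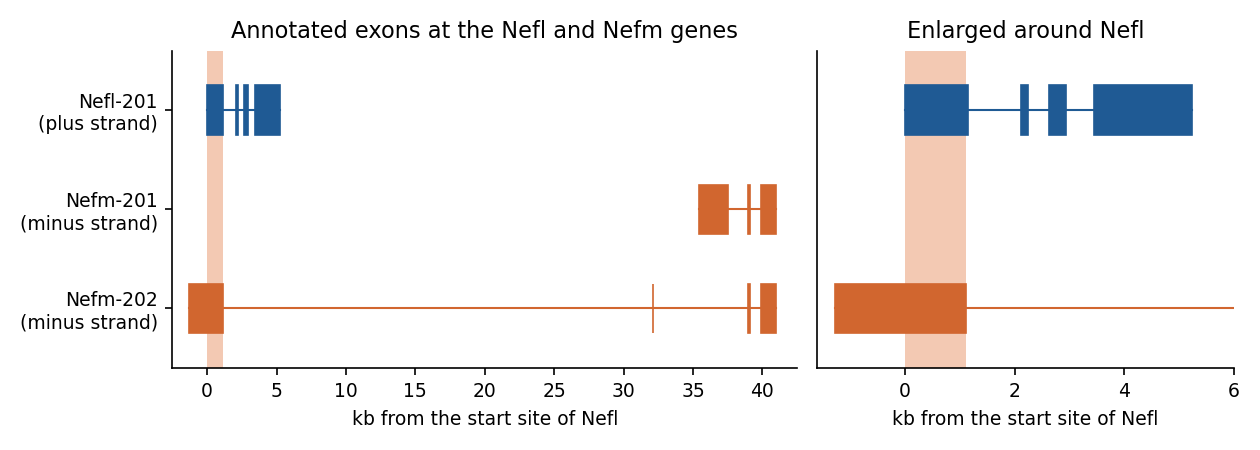
Exons of Nefl-201, Nefm-201 and Nefm-202, drawn by distance in kilobases from the start site of Nefl, with exons as boxes outlined by a thin line and the overlap shaded. The right panel enlarges Nefl, where the last exon of Nefm-202 covers 32.8% of Nefl-201 on the opposite strand.

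Nefm-201 held 95.15% of the TPM of Nefm in replicate 1 and 92.84% in replicate 2, and Nefm-202 held 4.85% and 7.16%. Nefm-202 was given 1070 fragments in replicate 1 and 607 in replicate 2, or 7.57 and 8.37 TPM. No source used here says whether counting used strand, and without strand the reads of overlapping antisense exons cannot be told apart. Of the 31-base words of Nefl-201, 32.2% occurred in Nefm-202 on the opposite strand, and 0 occurred in another gene on the same strand. The expected counts of Nefl and Nefm were not whole, while their sum was the whole number 73098 in replicate 1 and 31573 in replicate 2, to 2 decimals. The authors' SD of the count was the same for both genes, 34.24 in replicate 1 and 26.92 in replicate 2, so that fragments were split between them. The levels of Nefm-202 and of Nefm as a gene are therefore uncertain to that extent, and the part of the overlap in them was not tested. With Nefm-201 alone, Nefm was at 129 TPM and the ratio of Nefl to Nefm was 3.04, and with all fragments of Nefm-202 added to Nefl, Nefl was at 394 TPM.

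A smaller overlap touched Ina. Exon 1 of Ina-201 lies over Nt5c2, which encodes a nucleotidase, on the opposite strand for 456 bases (47014698 to 47015153), or 14.1% of Ina-201, and 13.3% of its 31-base words occurred in transcripts of that gene. Nt5c2 was given 3350 fragments in replicate 1 and 944 in replicate 2, against 10068 and 2909 for Ina. The summed expected counts of Ina and Nt5c2 were not whole, at 13417.87 and 3852.47, unlike those of Nefl and Nefm. Nefh and Prph had whole expected counts, 2954 and 604 for Nefh, so that no split of their fragments with another gene was seen. All fragments of Prph were given to Prph-201 in the gene table's quantification, and 0 to the 3 other annotated Prph transcripts. In the second quantification of the same libraries, Prph-201 held 95.8% and 89.95% of the TPM of Prph. The rest came from 6.18 estimated fragments of Prph-202 in replicate 1 and 1.60 of Prph-203 in replicate 2.

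That second quantification, made by the authors straight from the reads, gave lower levels for each member and the same order. It put Nefl at 284 and 277 TPM, Nefm at 116 and 95.8 TPM, Ina at 58.5 and 36.7 TPM, Nefh at 14.3 and 6.95 TPM and Prph at 1.13 and 1.29 TPM. For Nefl the log2 ratio of the second quantification to the gene table was -0.53 in replicate 1 and -0.37 in replicate 2, beside medians over genes with a mean of at least 1 TPM of -0.38 and -0.27. The ratio of Nefl to Nefh was likewise higher in replicate 2, at 39.9 against 19.8 in replicate 1.

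The difference between the libraries was then set out for each member as the log2 ratio of normalised counts, replicate 2 over replicate 1, with a pseudocount of 0.5 CPM (counts scaled to library size). With 1 library on each side it compares these libraries, not conditions, and carries no p-value. The ratio was -0.33 for Nefl (95% counting interval -0.35 to -0.31), -0.55 for Nefm (-0.59 to -0.51), -0.96 for Ina (-1.03 to -0.91) and -1.44 for Nefh (-1.59 to -1.34). For Prph it was 0.02 (-0.47 to 0.51). In linear terms replicate 2 was lower 1.26-fold for Nefl, 1.46-fold for Nefm, 1.95-fold for Ina and 2.72-fold for Nefh. Nefh, the least abundant neurofilament subunit, was the member whose libraries lay furthest apart, whereas the interval of Prph held 0 and values on both sides of it.

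At a threshold of 1.5-fold, 2 of 5 members, Nefh and Ina, were lower in replicate 2 and 0 were higher. Of 14656 genes tested, 17.2% were lower in replicate 2 by that much and 3.22% were higher, together 20.5%, so that such differences were common between these libraries. The median over all genes tested was -0.03, with 5% of genes below -1.39 and 5% above 0.49. A lower ratio than that of Nefh was found in 4.62% of genes, than that of Ina in 9.45%, than that of Nefm in 18.4%, than that of Nefl in 27.5% and than that of Prph in 56.3%. Lower genes made up 84.3% of the genes past the threshold, and 71.4% when libraries were scaled by total count, which moved the median over all genes to 0.09. Nefh and Ina were past the threshold under both scalings. At 2-fold, 1 of 5 members, Nefh, was lower and 0 were higher, beside 8.79% of all genes lower, 0.6% higher and 9.39% together.

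**Figure D4:**
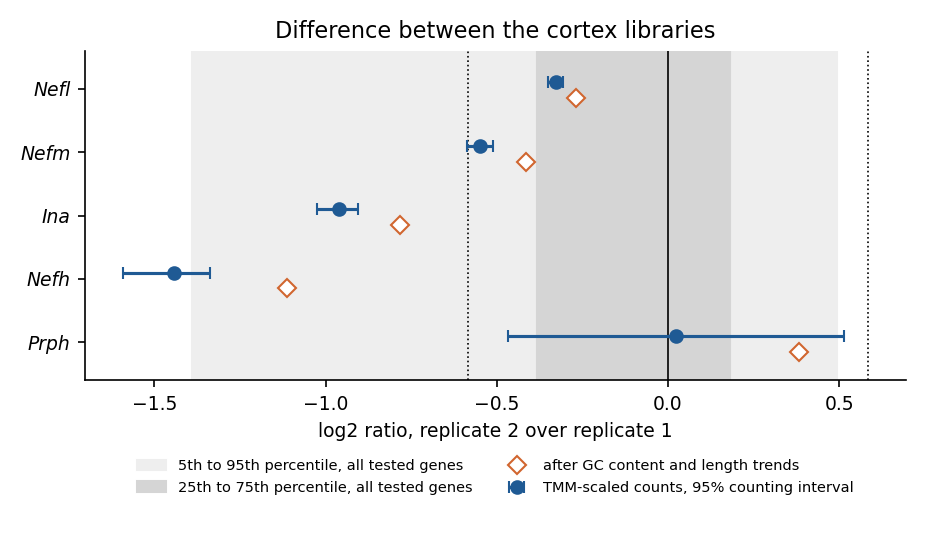
Log2 ratio of replicate 2 over replicate 1 for each family member with its 95% counting interval (filled circles) and after the GC content and length trends (open diamonds). Grey bands give the spread over all 14656 genes tested and dotted lines the 1.5-fold threshold. Nefh at -1.44 and Ina at -0.96 lay past it, as did 17.2% of all genes in the same direction.

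The GC content of the members moved with these ratios, apart from Prph. It was 48.8% for Nefl, 53.7% for Nefm, 55.5% for Ina, 58.4% for Nefh and 60.4% for Prph, beside a median of 50.8% over all genes tested. Over all genes the median log2 ratio was 0.00 at a GC content of 47.5% to 50%, -0.15 at 55% to 57.5% and -0.49 at 60% to 62.5%. At the GC content of each member the trend over all genes stood at -0.01 for Nefl, -0.08 for Nefm, -0.13 for Ina, -0.26 for Nefh and -0.39 for Prph. The ratios of Nefl, Nefm, Ina and Nefh lay below that trend, and Prph lay above it.

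After the trends with GC content and length over all genes were taken off, the log2 ratio was -0.27 for Nefl, -0.42 for Nefm, -0.78 for Ina, -1.11 for Nefh and 0.38 for Prph. Nefh and Ina were still past 1.5-fold, as were 14.1% of all genes in that direction, with 4.27% higher and 18.4% in either direction. The fragment length implied by the effective length of Nefl-201 also differed, at 164 bases in replicate 1 and 124 in replicate 2. The part of GC content and fragment length in the members' ratios beyond these trends was not tested.

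**Figure D5:**
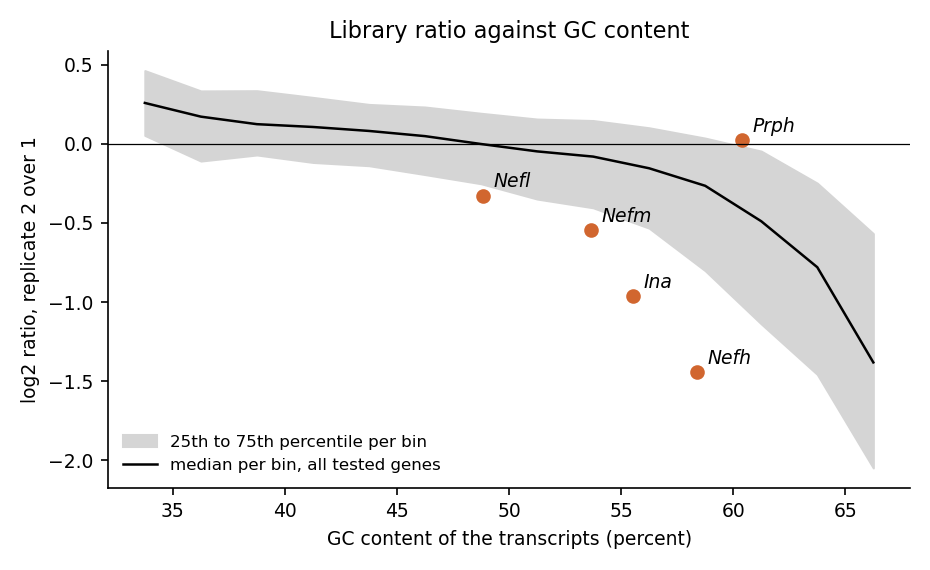
Log2 ratio of replicate 2 over replicate 1 against GC content in percent, with the median and middle range over all genes in each bin as a line and a grey band and the 5 family members as points. Nefl, Nefm, Ina and Nefh lay below the line at their GC content and Prph lay above it.

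The other intermediate filaments of brain cells were set beside the family. Of 12 listed, 7 were detected and 10 were tested. Of those tested 0 were lower and 0 higher in replicate 2 at 1.5-fold, beside 17.2% lower and 3.22% higher over all genes. Their median log2 ratio was -0.17, with a range from -0.53 to 0.31. Gfap, the filament of astrocytes, was at 46.6 and 44.1 TPM, the nuclear lamin gene Lmna at 41.3 and 44.5 TPM, and Vim, which encodes vimentin of glia and vessels, at 31.5 and 30.3 TPM. Each lay below Ina in mean level and above Nefh. Lmnb1, another lamin gene, was the lowest of the list at 0.40 and 0.22 TPM. The neurofilament family held 81.5% of the summed TPM of the 17 intermediate filament genes in replicate 1 and 77.9% in replicate 2. The sum of the 12 others was 152 TPM in replicate 1 and 151 TPM in replicate 2.

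Of 18 kinases and phosphatases that act on the neurofilament tails, 8 were lower in replicate 2 at 1.5-fold and 0 were higher. Over all genes 17.2% were lower and 3.22% higher. The median log2 ratio of the list was -0.41, beside -0.03 over all genes. After the GC content and length trends 8 were lower, beside 14.1% of all genes. Prkaca, a catalytic subunit of protein kinase A, was at 206 TPM in replicate 1 and 77.8 TPM in replicate 2, a log2 ratio of -1.52, whereas its paralogue Prkacb was at 110 and 155 TPM, a log2 ratio of 0.36. Ppp2ca, a catalytic subunit of the phosphatase PP2A, had a log2 ratio of -1.63, at 43.2 and 15.4 TPM. Cdk5r2, an activator of the tail kinase Cdk5, had a log2 ratio of -1.51, at 32.4 and 12.3 TPM, and Gsk3a, which encodes a glycogen synthase kinase, had -1.08. The other 4 included Mapk8, Mapk9 and Cdk5r1. The list held genes on both sides, and Rock1, its lowest member, was at 7.21 and 3.91 TPM.

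Linkers, motors and the axonal scaffold carry neurofilaments along microtubules and tie them to the cortex of the axon. Of 17 such genes tested, 2 were lower in replicate 2 at 1.5-fold and 0 were higher, with a median log2 ratio of -0.01. Over all genes tested 17.2% were lower and 3.22% higher, with a median of -0.03. After the GC content and length trends 2 were lower and 0 higher, beside 14.1% and 4.27% of all genes. The kinesin light chain gene Klc1 was the highest at 301 and 376 TPM, and the motor gene Kif5a followed at 258 and 246 TPM. The 2 lower genes were Klc2, at 29.6 and 9.46 TPM, and Sptbn4, the spectrin of the axon initial segment, at 9.73 and 1.60 TPM with a log2 ratio of -2.62. By normalised counts the other 15 genes of the list differed by less than 1.5-fold, although the TPM of Kif5c, a kinesin motor gene, was 112 and 179.

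Of 11 genes for turnover and RNA binding of neurofilaments, 5 were lower and 2 higher, with a median of 0.03, beside 17.2% lower and 3.22% higher over all genes. After the GC content and length trends 3 were lower and 2 higher, beside 14.1% and 4.27% of all genes. Capn2 (-0.50) and Hspb1 (-0.32) then no longer passed 1.5-fold. Sod1, which encodes superoxide dismutase, was the highest at 536 and 1062 TPM, a log2 ratio of 0.95, and Trim2, a ubiquitin ligase of the light subunit, was at 45.3 and 73.5 TPM. The calpain gene Capn1 was lower at 5.75 and 1.21 TPM, a log2 ratio of -2.13, and the other 4 lower genes were Capn2, Hspb1, Dazap1 and Bag3. Stub1, a chaperone-linked ubiquitin ligase, was at 277 and 339 TPM.

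Neuronal markers were set beside the members because the members are neuronal genes. Of 15 pan-neuronal genes, 5 were lower in replicate 2 and 0 higher, with a median log2 ratio of -0.13. Over all genes 17.2% were lower and 3.22% higher. After the GC content and length trends 4 were lower and 0 higher, beside 14.1% and 4.27% of all genes. Rbfox3, at -0.57, then fell just short of 1.5-fold. The synaptic gene Snap25 was at 2359 and 2730.5 TPM, a log2 ratio of 0.12, whereas Nrgn, a dendritic calmodulin-binding protein gene, was at 449 and 159 TPM, a log2 ratio of -1.57. Syn1 (-1.27), Eno2 (-0.93) and Rbfox3 (-0.90) were lower too, and Thy1 was lower by normalised counts (-0.66) though not in TPM, at 242 and 275. The members' ratios therefore lay within the range of these neuronal genes. Of 9 oligodendrocyte genes tested 0 were lower, with medians of 122 and 116 TPM, and of 9 astrocyte genes 2 were lower, with medians of 110 and 127 TPM. The part of cell makeup in the members' ratios was not tested.

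The genes nearest to each member in level over the 2 libraries were picked among protein coding genes by the distance of log2(TPM + 0.1). For Nefl they were Pfn2, an actin-binding profilin, at 431 and 357 TPM, and Syt1, the calcium sensor of transmitter release, at 389 and 372 TPM. For Nefm they were Aktip and Tmed2, for Nefh Dnajc21 and Sppl3, and for Prph 4930447C04Rik and Fam184b. For Ina they included Trim28. Dnajc21 was at 19.8 and 7.73 TPM, close to Nefh at 19.2 and 7.65 TPM. The likeness rests on 2 libraries only.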

How the data were processed

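Poly(A)-selected RNA-seq of left cerebral cortex was analysed from 2 libraries of 1 group. The authors deposited expected counts and TPM per gene and per transcript, and the percent of each gene's TPM held by each transcript (isoform percent), per the file headers. The second transcript tables, which the authors made from the reads directly, held estimated counts and TPM, per the deposited notes. All used mm10 with GENCODE M21, per the deposited notes. Which aligner and quantifiers were run, and whether strand was used, is not given in the sources. The gene tables assigned 51888490 (replicate 1) and 26776276 (replicate 2) fragments to genes, and the second transcript tables assigned 76100574 and 46367538.

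Numerically named entries (26248) and spike-ins (97) were left out, and held 1.73e-05% and 3.35e-05% of fragments. For the log2 ratios, expected counts were rounded and scaled by TMM (edgeR 4.0.16 in R 4.3.3, factors 0.956 and 1.046), and a pseudocount of 0.5 CPM was added, over the 14656 genes with a mean of at least 1 CPM. Trends of the log2 ratio with GC content and length over all genes were taken off by lowess (fraction 0.3, statsmodels 0.14.6, Python 3.11.15). Intervals are exact Clopper-Pearson intervals at 95% (scipy 1.17.1). With 1 library a side no p-value was computed. The scripts were tested on simulated data. Sequences were read from the GENCODE M21 transcripts and annotation.

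The members were chosen by name, and earlier results of these data were known when the members, the gene lists and the thresholds were chosen. Named genes were the 5 members and, of each list, the 2 highest and the lowest by mean TPM and up to 4 with the largest absolute log2 ratio at a mean of at least 5 CPM, plus the 2 genes nearest to each member in level. Genes named outside that rule, such as the remaining genes past the threshold in a list, were chosen after their values were seen, and some genes and sequences are not reported here. The alternatives were DESeq2 1.42.0 size factors, total-count scaling, other filters, a pseudocount of 0.1, a 2-fold threshold, the second transcript tables, TPM ratios, each library left out and, added after the data were seen, Nefm-201 alone and Nefl with the fragments of Nefm-202.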

Additional observations from a re-analysis of the deposited data

How the results depend on the processing

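The order of the members by level and the direction of the ratios of Nefl, Nefm, Ina and Nefh were the same under the alternatives run. The ratio of Prph, which passed no threshold, ran from -0.13 in the second transcript tables to 0.38 after the trends. In the second transcript tables Nefl was at 281 TPM, Nefm at 106 TPM and Prph at 1.21 TPM, and Prph-201 held 92.9% of the TPM of Prph. Rescaled over nuclear protein coding genes, Nefl was at 464 TPM, Nefm at 165 TPM and Prph at 1.96 TPM. With Nefm-201 alone, chosen after the data were seen, the log2 ratio of Nefm was -0.59, only just past 1.5-fold. In the main setting it was -0.55, just short of that threshold, and 17.2% of all genes were lower by 1.5-fold. At a 2-fold threshold 1376 genes were called in place of 3000, and 1 member, Nefh, in place of 2, since Ina at -0.96 missed it. With no filter on low counts 27458 genes were tested and 2853 were lower and 685 higher. The cause of these shifts beyond the change of threshold or of the genes tested was not tested. Over the 15 other gene lists and their alternatives, 45 counts of genes past the threshold stayed within 1.5 times the count reported, 3 were higher and 12 lower. Leaving out each library in turn gave the values of the other library, between 7.65 and 19.2 TPM for Nefh. No paired analysis was possible because there is 1 group and nothing to pair its libraries with. Depth limits Prph, with 99 and 57 fragments.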

Other observations

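Markers of layer 5 projection neurons and parvalbumin interneurons, known for high neurofilament content, and of upper layer neurons were measured beside the family. Over all genes tested, 17.2% were lower in replicate 2 at 1.5-fold and 3.22% higher, and 14.1% and 4.27% after the GC content and length trends. Of 10 layer 5 projection neuron genes tested, 2 were lower in replicate 2 at 1.5-fold and 0 higher, Sulf2 (log2 ratio -0.84) and Fezf2 (-0.76), while Pcp4 was at 927 and 1115 TPM and Bcl11b had a log2 ratio of 0.39. After those trends 1 was lower, Sulf2, and 1 higher, Bcl11b at 0.82, while Fezf2 at -0.58 fell just short of 1.5-fold. Of 10 genes listed for parvalbumin interneurons, 3 were lower and 0 higher. Some of them, such as Gad1 (log2 ratio 0.28), Gad2 (0.35) and Slc32a1 (-0.84), are not particular to parvalbumin interneurons. Pvalb itself was at 84.4 and 73.8 TPM, near the level of Ina in replicate 1, and the potassium channel gene Kcnc1 was at 46.1 and 17.9 TPM, a log2 ratio of -1.64. The other 2 were Syt2 and Slc32a1, which stood at -0.53 and -0.30 after the trends, so that 1 of the 10, Kcnc1, was then lower. Of 10 upper layer genes, 4 were lower and 2 higher, and after the trends 2 were lower and 1 higher, since Cux2, Lhx2 and Rorb no longer passed 1.5-fold.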
